A study of Arabidopsis thaliana with 4 samples.

Results

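The WRKY genes encode a large plant family of transcription factors, and 58 of them, taken by locus identifier, were described in inflorescence shoot apices of Arabidopsis thaliana. They were 58 of the 27322 gene models read, numbered from WRKY1 to WRKY75, and all 58 were in the table. The list was drawn up with results of these data known, so its counts are a description and carry no test. RNA came from apices of an mp clv3 double mutant (mp319 clv3-7 in the labels) and of the wild type Col-0 (WT), with older flowers taken off 6-week plants. MP, also called MONOPTEROS or ARF5, activates auxin-responsive genes of organ initiation, and CLV3 is the peptide that restrains the stem cells of the shoot meristem. The labels give 2 biological replicates per genotype, and the table gives 1 column of read numbers and 1 of RPKM (reads scaled by gene model length and by the column total) per genotype. Whether a column sums the replicates is not stated, so no difference here has a replicate check.

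WRKY factors are named after the heptapeptide WRKYGQK of their DNA-binding domain, which is followed by a zinc finger and binds the W-box, a DNA element with the core TTGAC. Group I proteins usually have a pair of WRKY domains, group II proteins have a single domain and fall into subgroups IIa to IIe, and group III proteins have a zinc finger of another type. Many members act in immunity downstream of MAP kinase cascades and of salicylate, and their own promoters often carry W-boxes through which members regulate each other. Others act in development, in seeds, trichomes, pollen, cell walls and leaf senescence. The subfamily of each member was taken from the established classification. For WRKY23 and WRKY45, set here in IIc, the RefSeq gene notes give group I.

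The mp clv3 column held 103347441 reads and the WT column 101878433. MP was at 14.5 RPKM in mp clv3, with 46.1 in WT, and CLV3 at 15.8 RPKM in mp clv3, with 0.0251 (2 reads) in WT. Where the lesions lie was not given in the sources used here; these levels therefore check neither mutation. The meristem markers STM, WUS and CLV1 were called higher, at 217, 21.8 and 41.3 RPKM in mp clv3, where WT had 68.8, 2.34 and 16.3. In the same shoot apex list, LFY was not called, at 27.4 RPKM in mp clv3, with 16.9 in WT. AP1 was called lower, at 0.158 RPKM in mp clv3, with 114 in WT. Summed over 6 stamen and petal markers, the level was 1.503 RPKM in mp clv3, with 318 in WT, with MS2, DYT1 and MYB80 at 0 reads in mp clv3. The sum over 4 leaf markers was 3107 RPKM in mp clv3, with 6652 in WT, and 2 of the 4 were called lower. That over 4 vascular markers was 35.3 RPKM in mp clv3, with 109 in WT, and 3 of the 4 were called lower. The last 3 lists thus each had a lower sum in mp clv3, while STM, WUS and CLV1, like the WRKY sum below, were higher. The part of tissue make-up in the results below was not tested. In whole apices, fewer cells of a type and less RNA per cell cannot be told apart. Values in parentheses after a ratio are its exact 95% interval on read pairs, which covers counting error only.

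The WRKY members were called higher in mp clv3 more often than lower. A member is called here where the authors' deposited table gives an FDR (adjusted p-value) under 0.05 and the ratio is at least 2-fold; the test behind that FDR, and whether it takes in the spread between replicates, are not stated. Of the 58 members, 28 were called higher and 9 lower, 20 were called neither way, and WRKY71 (6 reads in mp clv3, with 2 in WT) was too low for a ratio. Over the 23060 gene models with more than 6 reads in either genotype, 11.3% were called higher and 23.3% lower, against 49.1% and 15.8% of the 57 members above that level. The median log2 ratio of the 57 members was 1.02, against -0.15 over all those models. By the FDR alone, 38 members were higher and 12 lower (36.9% and 50.8% of all models). Requiring the whole counting interval to lie beyond 2-fold left 24 members higher and 5 lower (8.73% and 17.1% of all models). With a pseudocount of 5 RPKM the counts were 18 higher and 1 lower (5.03% and 6.35% of all models). The table also held 14 WRKY genes outside the list, of which 8 were above that level, with 4 called higher and 1 lower.

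**Figure D1:**
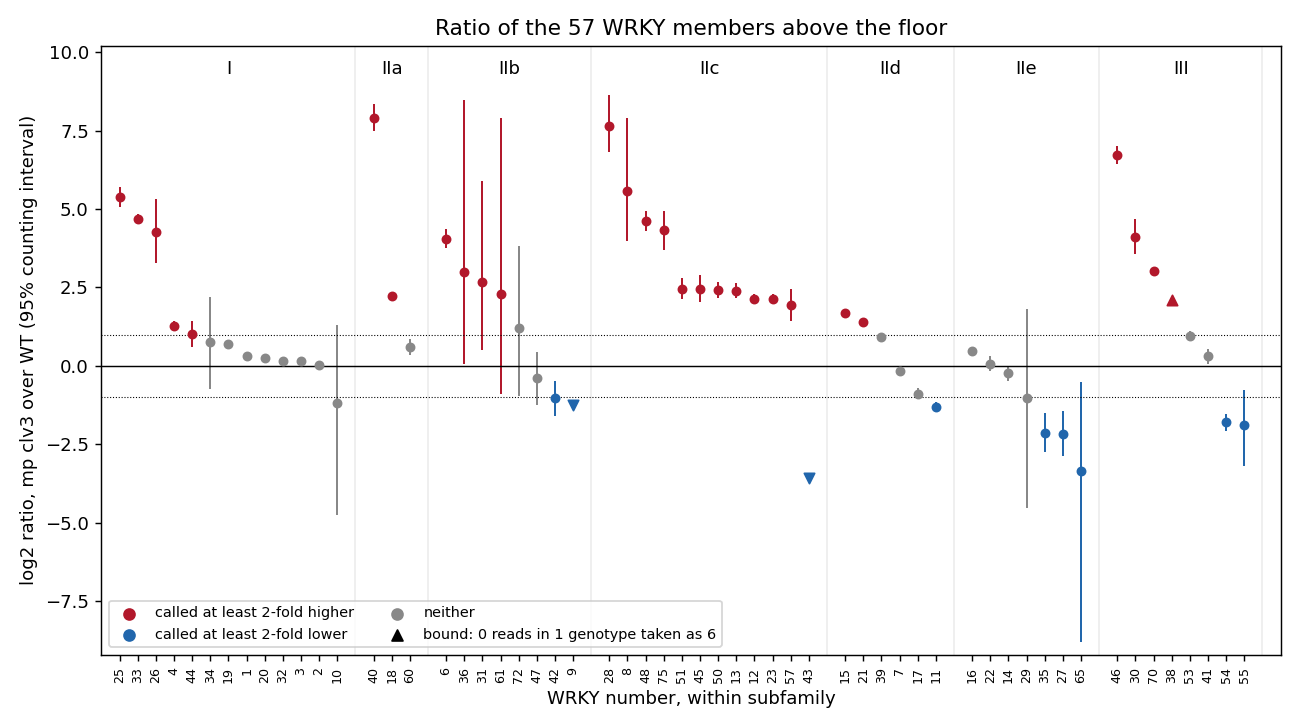
Log2 ratio of mp clv3 over WT for the 57 WRKY members above the floor, by subfamily; bars are 95% counting intervals on read pairs, triangles are bounds for members with 0 reads in 1 genotype, and dotted lines mark 2-fold. Subfamily IIc lies above 2-fold with the exception of WRKY43, and no member of IIe does.

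The summed level of the 58 members was 2107 RPKM in mp clv3, with 489 in WT, 4.31 times as high in the mutant. WRKY70 had the highest level in both genotypes, at 548 RPKM in mp clv3, with 67.8 in WT, and ranked 118th of all models in mp clv3 and 2023rd in WT. In mp clv3 it was followed by WRKY40, WRKY46 and WRKY33, and these 4 members made up 55.2% of the summed level. WRKY40 and WRKY46 were at 0.920 and 2.00 RPKM in WT, where the members after WRKY70 were WRKY39 (39.3 RPKM), WRKY11 (38.7 RPKM) and WRKY15 (30.9 RPKM). At least 10 RPKM was reached by 27 members in mp clv3 and by 14 in WT.

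**Figure D2:**
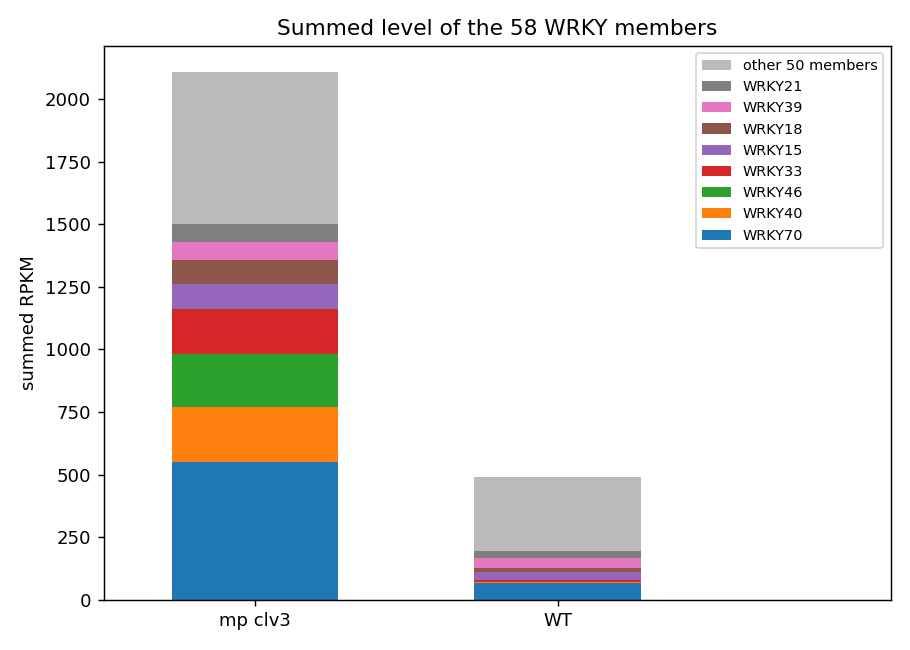
Summed RPKM of the 58 WRKY members in mp clv3 (2107) and WT (489), 1 value per genotype; colours mark the 8 members with the highest level in mp clv3. WRKY70, WRKY40, WRKY46 and WRKY33 make up 55.2% of the mp clv3 bar.

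Promoter sequence is shown for 5 members that the results turn on: WRKY40, with the highest ratio of the family, the 3 members called higher whose promoters held more than 1 W-box and no other gene, and WRKY53, with a pair of W-boxes and a ratio just under 2-fold. Each is the 250 bases before the annotated gene start, from the TAIR10.1 genome and RefSeq annotation, printed 5' to 3' along the gene. Capitals mark the W-box letters TTGACC or TTGACT and their reverse complements GGTCAA and AGTCAA.
WRKY40 promoter, chr1:30383311-30383560 on the plus strand: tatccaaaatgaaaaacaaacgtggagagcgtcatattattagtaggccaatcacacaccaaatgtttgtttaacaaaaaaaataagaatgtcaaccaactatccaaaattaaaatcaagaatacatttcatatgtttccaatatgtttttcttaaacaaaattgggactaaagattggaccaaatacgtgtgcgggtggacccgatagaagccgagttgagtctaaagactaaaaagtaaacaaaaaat
WRKY33 promoter, chr2:16107985-16108234 on the plus strand: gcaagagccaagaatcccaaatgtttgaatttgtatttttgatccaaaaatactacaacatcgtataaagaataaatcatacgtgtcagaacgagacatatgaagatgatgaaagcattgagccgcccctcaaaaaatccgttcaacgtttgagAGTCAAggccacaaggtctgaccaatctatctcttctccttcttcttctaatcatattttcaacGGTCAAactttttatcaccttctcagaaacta
WRKY30 promoter, chr5:8154711-8154960 on the minus strand: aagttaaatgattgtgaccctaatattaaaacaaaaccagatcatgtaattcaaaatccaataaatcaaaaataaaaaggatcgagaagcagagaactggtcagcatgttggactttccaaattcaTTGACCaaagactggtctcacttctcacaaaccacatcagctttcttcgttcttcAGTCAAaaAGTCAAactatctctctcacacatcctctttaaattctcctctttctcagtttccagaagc
WRKY15 promoter, chr2:9924636-9924885 on the plus strand: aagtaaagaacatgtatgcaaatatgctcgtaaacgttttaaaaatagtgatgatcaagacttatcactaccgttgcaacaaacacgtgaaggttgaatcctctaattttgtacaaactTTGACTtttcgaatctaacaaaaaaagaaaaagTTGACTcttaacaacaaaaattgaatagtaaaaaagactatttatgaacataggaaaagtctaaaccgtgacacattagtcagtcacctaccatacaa
WRKY53 promoter, chr4:12393983-12394232 on the minus strand: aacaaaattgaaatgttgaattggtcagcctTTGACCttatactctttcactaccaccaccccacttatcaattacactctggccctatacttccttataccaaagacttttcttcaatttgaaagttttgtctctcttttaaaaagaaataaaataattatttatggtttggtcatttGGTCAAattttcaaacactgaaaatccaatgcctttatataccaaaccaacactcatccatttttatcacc
The WRKY30 promoter held 3 W-boxes, starting 124, 69 and 61 bases before the gene start. Those of WRKY33 started 96 and 32 bases before it, those of WRKY15 131 and 98 bases, and those of WRKY53 219 and 71 bases. No window of the 3 IIa members, WRKY40 among them, held TTGACC or TTGACT on either strand, which says only that these letters were not in these 250 bases. The shorter core TTGAC does occur in the WRKY40 window, as gtcaa on the other strand, and was not counted. A W-box by the letters TTGACC or TTGACT was found in 21 of the 58 member promoters (36.2%) and in 28.5% of 26634 protein-coding promoters. At least 2 were found in 9 of the 58 (15.5%) and in 6.21% of all. Among the members, 10 of the 28 called higher held a W-box, 3 of the 9 called lower and 8 of the 20 called neither way. Over all models, 38.4% of the promoters of genes called higher held a W-box, 25.4% of those called lower and 27.3% of those called neither way. The auxin response element letters TGTCTC, on either strand, occurred in 8 member promoters (13.8%) and in 10.9% of all, and not in the window of WRKY23.

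Group I had 5 of 13 members called higher and none lower, where all models had 11.3% higher and 23.3% lower. Its ratios ranged from 41.6-fold higher to near equality among the members above 1 RPKM. WRKY33 (AT2G38470), required for resistance to necrotrophic fungi and for camalexin synthesis, was at 181 RPKM in mp clv3, with 7.00 in WT, 25.9-fold higher (24.0 to 28.03). WRKY25 (AT2G30250) was at 48.2 RPKM in mp clv3, with 1.16 in WT, 41.6-fold higher (33.9 to 51.5). WRKY26 (AT5G07100) was at 3.13 RPKM in mp clv3, with 0.161 in WT, 19.5-fold higher (9.86 to 39.3). These 3 are close relatives that act together in heat responses, and all were called higher. WRKY4 (AT1G13960), which acts with WRKY3 (AT2G03340) in defence against necrotrophs, was at 19.4 RPKM in mp clv3, with 7.97 in WT, 2.44-fold higher (2.24 to 2.65). WRKY3 itself was at 21.2 RPKM in mp clv3, with 19.1 in WT. WRKY1 (AT2G04880), WRKY20 (AT4G26640) and WRKY32 (AT4G30935) were likewise within 1.24-fold of WT, at 33.03, 30.1 and 23.3 RPKM in mp clv3 against 26.7, 24.99 and 20.9 RPKM in WT. WRKY19 (AT4G12020), whose protein joins WRKY domains to a resistance-protein part and a kinase, was at 6.88 RPKM in mp clv3, with 4.23 in WT, a ratio of 1.63 (1.51 to 1.75).

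The group I members with roles in reproduction and the epidermis were low or little changed. WRKY2 (AT5G56270), which sets zygote polarity, was at 8.55 RPKM in mp clv3, with 8.47 in WT, a ratio of 1.01 (0.932 to 1.09). Its relative WRKY34 (AT4G26440), a pollen factor, had 26 reads in mp clv3, with 15 in WT, and WRKY10 (AT1G55600, MINI3), a factor of endosperm growth, had 4 in mp clv3, with 9 in WT. WRKY34 and WRKY10 were not called. WRKY44 (AT2G37260, TTG2), which acts in trichomes and the seed coat, was at 1.90 RPKM in mp clv3, with 0.940 in WT. Its ratio of 2.02 (1.56 to 2.65) lay just inside the 2-fold threshold, and the counting interval reached below it.

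Subfamily IIa holds 3 closely related factors that form complexes with each other and dampen basal defence. WRKY40 (AT1G80840) had 27267 reads in mp clv3, with 112 in WT, at 221 RPKM against 0.920 RPKM, which made it 240.0-fold higher (185 to 318) and the member with the highest ratio. WRKY18 (AT4G31800) was at 93.9 RPKM in mp clv3, with 19.8 in WT, 4.74-fold higher (4.45 to 5.03). WRKY60 (AT2G25000) was at 7.31 RPKM in mp clv3, with 4.81 in WT, a ratio of 1.52 (1.31 to 1.77) that was not called. The order of levels thus differed between the genotypes: WRKY40 was the highest of the 3 in mp clv3 and the lowest in WT. The annotated span of WRKY40 shares 51 bases with AT1G80850 on the opposite strand, which had 2935 reads in mp clv3, with 2087 in WT.

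Subfamily IIc was the most uniform, with 11 of its 12 members above the floor called higher and 1 lower. Over all models these shares were 11.3% and 23.3%. WRKY28 (AT4G18170), an activator of the salicylate synthesis gene ICS1, was at 38.4 RPKM in mp clv3, with 0.190 (24 reads) in WT, 203-fold higher (116 to 393). Its nearest relative WRKY8 (AT5G46350) had 291 reads in mp clv3, with 6 in WT, a ratio of 47.8 with a wide interval (16.1 to 235). WRKY48 (AT5G49520), a negative regulator of resistance to Pseudomonas syringae, was at 28.8 RPKM in mp clv3, with 1.17 in WT, 24.6-fold higher (20.3 to 30.2). WRKY75 (AT5G13080), a factor of the phosphate starvation response, was at 13.8 RPKM in mp clv3, with 0.687 in WT, 20.01-fold higher (13.3 to 30.1). Its relative WRKY45 (AT3G01970), which also acts in phosphate uptake, was at 7.22 RPKM in mp clv3, with 1.31 in WT. WRKY50 (AT5G26170) and WRKY51 (AT5G64810), which take part in the repression of jasmonate signalling, differed by a like factor: WRKY50 was at 40.5 RPKM in mp clv3, with 7.50 in WT, and WRKY51 at 17.4 RPKM in mp clv3, with 3.16 in WT. Their ratios were 5.40 (4.63 to 6.29) and 5.53 (4.52 to 6.82). WRKY57 (AT1G69310), a drought tolerance factor, was at 2.60 RPKM in mp clv3, with 0.678 in WT.

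WRKY12 (AT2G44745), WRKY13 (AT4G39410) and WRKY23 (AT2G47260), IIc members with roles in development, were called higher as well. WRKY12, which restrains wall thickening in the pith and promotes flowering, was at 67.7 RPKM in mp clv3, with 15.3 in WT, 4.42-fold higher (4.07 to 4.81). WRKY13, which acts against WRKY12 on flowering time, was at 26.2 RPKM in mp clv3, with 4.97 in WT, 5.27-fold higher (4.59 to 6.05). WRKY23, an auxin-responsive gene that acts in embryos and roots downstream of response factors of the MP family, was at 26.1 RPKM in mp clv3, with 5.93 in WT, 4.40-fold higher (4.02 to 4.83). In the same columns MP was 3.18-fold lower, ARF19 was at 18.2 RPKM in mp clv3, with 7.51 in WT, and ARF7 was at 15.9 RPKM in mp clv3, with 14.0 in WT. The repressor gene IAA14 was at 0.157 RPKM in mp clv3, with 1.74 in WT, and IAA12 at 37.1 RPKM in mp clv3, with 25.2 in WT. WRKY43 (AT2G46130) was the exception in IIc, with 0 reads in mp clv3 and 70 in WT, at least 11.8-fold lower against a floor of 6 reads, with a 95% counting bound of 9.13-fold. WRKY71 (AT1G29860), a factor of shoot branching, was close to absent from both columns.

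**Figure D3:**
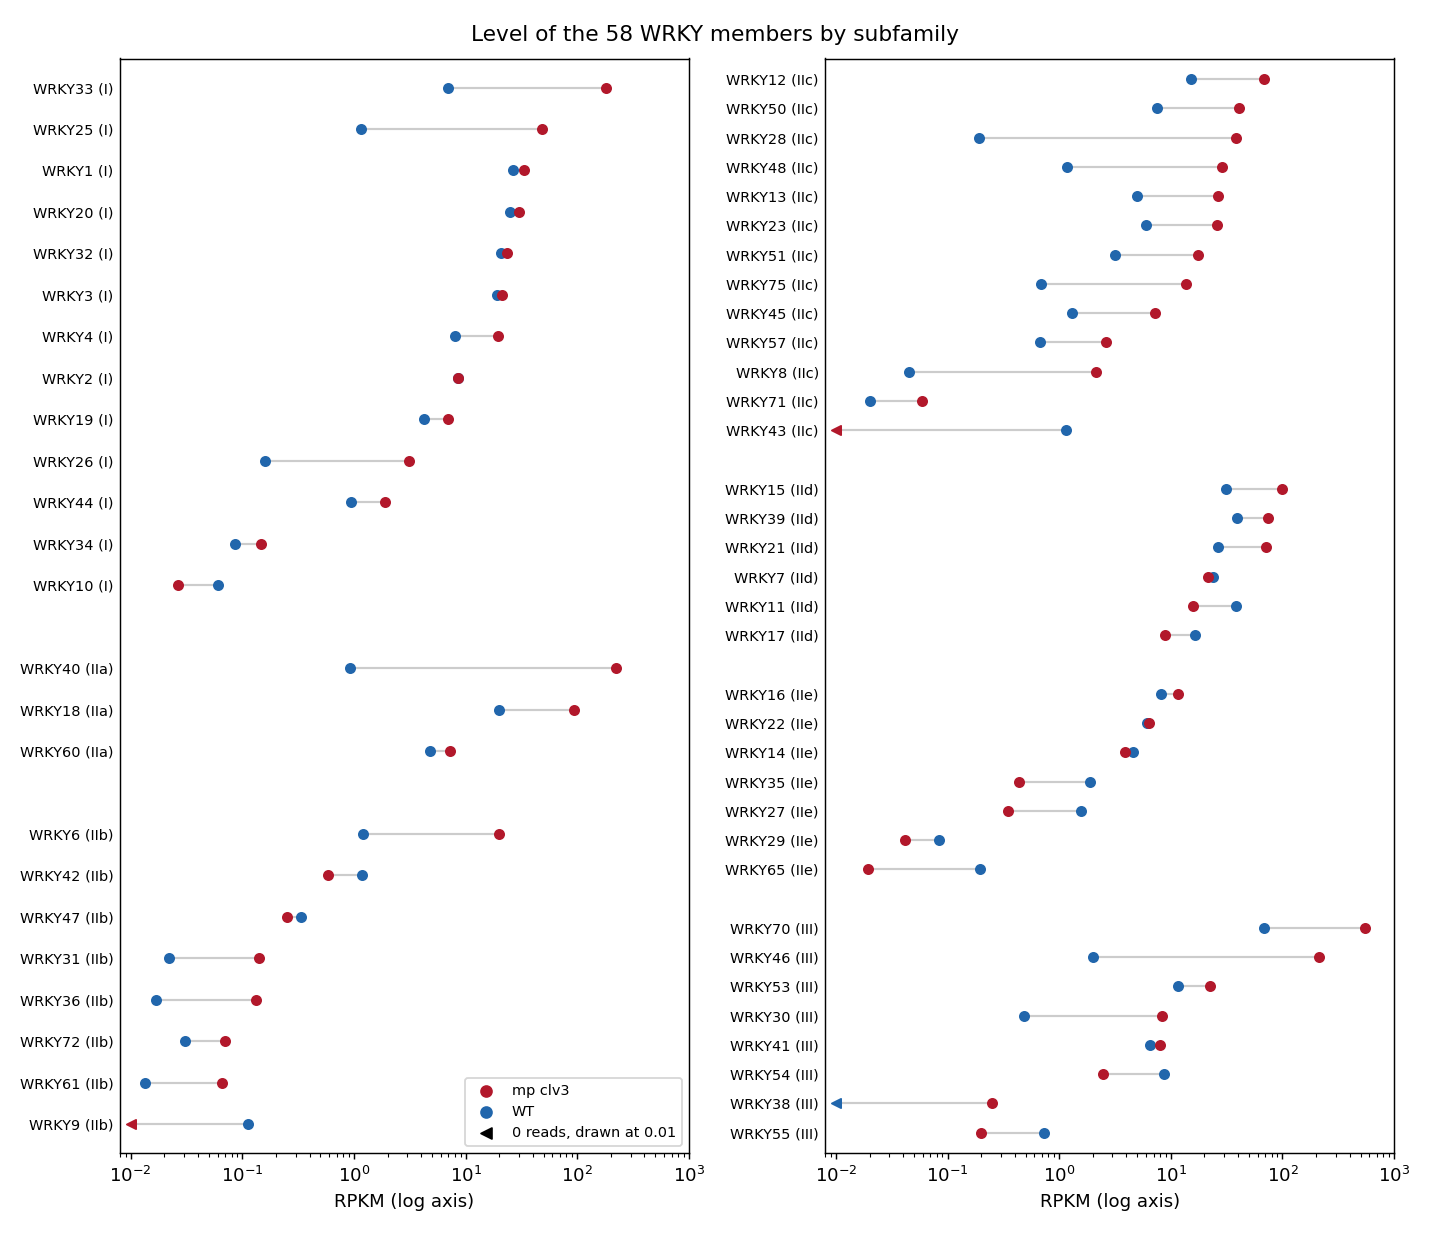
RPKM on a log axis for each of the 58 WRKY members in mp clv3 (red) and WT (blue), grouped by subfamily, 1 value per genotype and no error bar; arrowheads mark 0 reads. Among members with reads in both genotypes, WRKY40, WRKY28 and WRKY46 show the widest gaps. In mp clv3 the 6 IId members lie between 8.91 and 99.2 RPKM.

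Group III, with many regulators of salicylate responses, had 4 of its 8 members called higher and 2 lower, where all models had 11.3% higher and 23.3% lower, so the share called lower is near that of all models. WRKY46 (AT2G46400) was at 213 RPKM in mp clv3, with 2.00 in WT, 106-fold higher (88.8 to 127). WRKY70 (AT3G56400), which activates salicylate-dependent genes, was 8.09-fold higher (7.82 to 8.37). WRKY54 (AT2G40750), its nearest relative and partner in salicylate signalling and senescence, was called lower, at 2.49 RPKM in mp clv3, with 8.69 in WT, 3.49-fold lower (2.94 to 4.16). WRKY55 (AT2G40740) had 18 reads in mp clv3, with 66 in WT, and was also called lower. WRKY30 (AT5G24110) was at 8.36 RPKM in mp clv3, with 0.480 in WT, 17.4-fold higher (12.01 to 25.3). WRKY38 (AT5G22570), a negative regulator of basal defence, had 26 reads in mp clv3, with 0 in WT, at least 4.27-fold higher against the floor of 6 reads, with a 95% counting bound of 3.004-fold. WRKY53 (AT4G23810), a promoter of leaf senescence, was at 22.2 RPKM in mp clv3, with 11.5 in WT, and its ratio of 1.94 (1.79 to 2.104) lay just outside the threshold. WRKY53 overlaps AT4G23800 on the opposite strand over 341 bases, and that gene had 19720 reads in mp clv3, with 37783 in WT. WRKY41 (AT4G11070), a factor of seed dormancy, was at 8.05 RPKM in mp clv3, with 6.54 in WT, and shares 517 bases with AT4G11080 on the other strand.

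Subfamily IId, whose proteins bind calmodulin, differed in both directions. WRKY15 (AT2G23320), which acts in cell expansion, was at 99.2 RPKM in mp clv3, with 30.9 in WT, 3.21-fold higher (3.05 to 3.38), and WRKY21 (AT2G30590) was at 70.7 RPKM in mp clv3, with 26.7 in WT, 2.65-fold higher (2.53 to 2.77). WRKY39 (AT3G04670) was at 74.6 RPKM in mp clv3, with 39.3 in WT, just outside the threshold at 1.90 (1.82 to 1.98). WRKY39 and WRKY53 passed 2-fold when the columns were scaled by TMM, which leaves the most changed genes out of the scaling. WRKY11 (AT4G31550), a negative regulator of basal resistance, was at 15.7 RPKM in mp clv3, with 38.7 in WT, 2.47-fold lower (2.29 to 2.66). Its relative WRKY17 (AT2G24570), with the same role, was at 8.91 RPKM in mp clv3, with 16.4 in WT, 1.84 times as high in WT (1.67 to 2.04). WRKY7 (AT4G24240) was at 21.4 RPKM in mp clv3, with 23.9 in WT.

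Subfamily IIe had no member called higher and 3 of its 7 called lower, where all models had 11.3% higher and 23.3% lower. Counts this small cannot be set apart from those shares. WRKY27 (AT5G52830) was at 0.346 RPKM in mp clv3, with 1.55 in WT, 4.49-fold lower (2.80 to 7.17), and WRKY35 (AT2G34830) was at 0.432 RPKM in mp clv3, with 1.88 in WT, 4.36-fold lower (2.88 to 6.56). WRKY65 (AT1G29280) had 2 reads in mp clv3, with 20 in WT, a ratio of 10.14 with an interval of 1.44 to 440.2. WRKY22 (AT4G01250), a factor of flagellin signalling, was at 6.38 RPKM in mp clv3, with 6.06 in WT, and WRKY29 (AT4G23550), placed in the same pathway, had 4 reads in mp clv3, with 8 in WT. WRKY14 (AT1G30650) was at 3.88 RPKM in mp clv3, with 4.57 in WT. WRKY16 (AT5G45050), in which a WRKY domain is fused to a resistance protein, was at 11.5 RPKM in mp clv3, with 8.17 in WT, a ratio of 1.40 (1.32 to 1.49).

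Most of subfamily IIb was near the limit of detection, with WRKY6 (AT1G62300) as the exception. WRKY6, a factor of senescence and of phosphate transport, was at 20.1 RPKM in mp clv3, with 1.21 in WT, 16.6-fold higher (13.8 to 20.03). WRKY42 (AT4G04450), which like WRKY6 represses the phosphate exporter gene PHO1, was at 0.584 RPKM in mp clv3, with 1.18 in WT, 2.03-fold lower (1.42 to 2.93), and was not called under TMM scaling. PHO1 itself had 44 reads in mp clv3, with 248 in WT. WRKY36 (AT1G69810), WRKY31 (AT4G22070) and WRKY61 (AT1G18860) were called higher on 16, 26 and 10 reads in mp clv3, where WT had 2, 4 and 2. The ratios of 7.89 (1.06 to 349.9), 6.41 (1.45 to 58.5) and 4.93 (0.552 to 233) do not fix a size. WRKY9 (AT1G68150) had 0 reads in mp clv3, with 14 in WT, at least 2.37-fold lower against the floor of 6 reads, but its 95% counting bound was 1.46-fold. The members WRKY72 (AT5G15130, 14 reads in mp clv3, with 6 in WT) and WRKY47 (AT4G01720, 48 and 62) were not called.

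Close relatives did not always move together. Aligning the longest coding sequences gave 13 pairs of members, each the other's nearest over at least 600 aligned bases, with 74.3% to 83.6% identity. In 2 pairs both members were called higher (WRKY25 with WRKY26, WRKY28 with WRKY8), and in 2 neither was called (WRKY2 with WRKY34, WRKY41 with WRKY53). In 7 pairs 1 member was called, 4 times higher and 3 times lower. The other 2 pairs were called in opposite directions, WRKY70 with WRKY54 and WRKY31 with WRKY42, the last on few reads for WRKY31. Left out by the minimum of 600 bases were WRKY45 with WRKY75 (404 bases), both called higher, and WRKY13 with WRKY43 (313 bases), called in opposite directions. Stretches of 50 bases shared with another gene were found in the transcripts of 1 member, WRKY40, where they made up 2.27%. That search compared letters along the same genome strand only and left out genes that overlap a member. Shared stretches between relatives on opposite strands, such as WRKY3 and WRKY4, could therefore not be found. The annotated spans of 12 members overlap a gene on the opposite strand, and without strand-aware counting their reads cannot be told apart. Beside those given above, WRKY4 shares 70 bases with AT1G13970, which had 1475 reads in mp clv3, with 108 in WT. WRKY33 shares 272 bases with AT2G08965, which has no read numbers here. It also shares 26 bases with AT2G38480, which had 75 reads in mp clv3, with 316 in WT.

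Some of the genes that work with the WRKY factors also differed. VQ proteins, small partners that bind WRKY domains, had 10 of 19 members above the floor called higher and 3 lower, and their median log2 ratio was 1.04; over all models 11.3% were higher and 23.3% lower, with a median of -0.15. VQ29 was at 19.98 RPKM in mp clv3, with 0.0638 (4 reads) in WT, and AT5G46780 was at 71.9 RPKM in mp clv3, with 3.82 in WT. AT2G22880 had 1989 reads in mp clv3, with 20 in WT, and AT4G20000 had 389 in mp clv3, with 10 in WT. Of 13 genes of the MAP kinase cascades upstream of WRKY factors, 4 were called higher and none lower, with a median of 0.72. MPK11 was at 86.3 RPKM in mp clv3, with 2.24 in WT, 38.6-fold higher (33.5 to 44.7). MPK3 was at 137 RPKM in mp clv3, with 26.7 in WT, 5.12-fold higher (4.88 to 5.37), and MKK9 at 62.8 RPKM in mp clv3, with 14.9 in WT. MPK6 was at 80.3 RPKM in mp clv3, with 39.5 in WT, 2.03-fold higher (1.95 to 2.12), close to the threshold. AT2G22880, MPK3 and MPK6 overlap other genes over 345, 192 and 267 bases. The gene model of AT2G22880 is itself 345 bases long.

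Known targets and markers of WRKY activity were called in both directions. Of 16 above the floor, the 8 called higher were FRK1, NHL10, PAD3, ACS2, PR1, PR2, PR5 and NPR1, and 6 were called lower. These were 50% and 37.5% of the 16, against 11.3% and 23.3% of all models. The defence targets FRK1 and PAD3 had 383 and 983 reads in mp clv3, where WT had 2 and 10, and PR2 was at 181 RPKM in mp clv3, with 0.141 in WT. ICS1, the target of WRKY28, was at 5.18 RPKM in mp clv3, with 3.97 in WT, a ratio of 1.31 (1.15 to 1.49). Among the developmental genes of the list, the wall gene NST1 had 2 reads in mp clv3, with 349 in WT, while NST2 had 0 reads in both. The branching genes RAX1, RAX2 and RAX3 were called lower, at 12, 94 and 81 reads in mp clv3, where WT had 145, 751 and 311. ICS1 and the RAX genes were chosen after their values were seen. Among 7 senescence genes above the floor, 4 were called higher (57.1%) and 1 lower (14.3%), against 11.3% and 23.3% of all models. The 1 called lower is too few to set apart from that share. SAG13 was at 19.4 RPKM in mp clv3, with 0.0310 in WT, SAG21 at 989.7 RPKM in mp clv3, with 29.3 in WT, and SAG29 had 0 reads in mp clv3, with 1182 in WT. Of 8 genes of the trichome complex around TTG2, 2 were called higher (CPC and GL3) and 3 lower, counts too small to set apart from the 11.3% and 23.3% of all models. The lower ones include TRY at 0.270 RPKM in mp clv3, with 10.8 in WT, and EGL3 at 2.86 RPKM in mp clv3, with 10.08 in WT.

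Genes of the rapid stress response, many of which are induced by touch, wounding and pathogens, were higher beside the WRKY members. Of 17 listed, 15 were called higher and none lower, and the median log2 ratio was 2.96. Over all models 11.3% were called higher and 23.3% lower. ZAT12 was at 87.3 RPKM in mp clv3, with 1.29 in WT, 67.8-fold higher (51.4 to 89.6), MYB51 at 31.0 RPKM in mp clv3, with 0.475 in WT, and ZAT10 at 31.3 RPKM in mp clv3, with 1.88 in WT. The touch gene TCH3 was at 981 RPKM in mp clv3, with 32.4 in WT, and overlaps another gene over 827 bases. TCH2 was at 42.6 RPKM in mp clv3, with 73.7 in WT, and overlaps another gene over 723 bases. The summed level of the list was 1954 RPKM in mp clv3, with 213 in WT. The part of handling or stress of the plants in the WRKY levels was not tested.

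**Figure D4:**
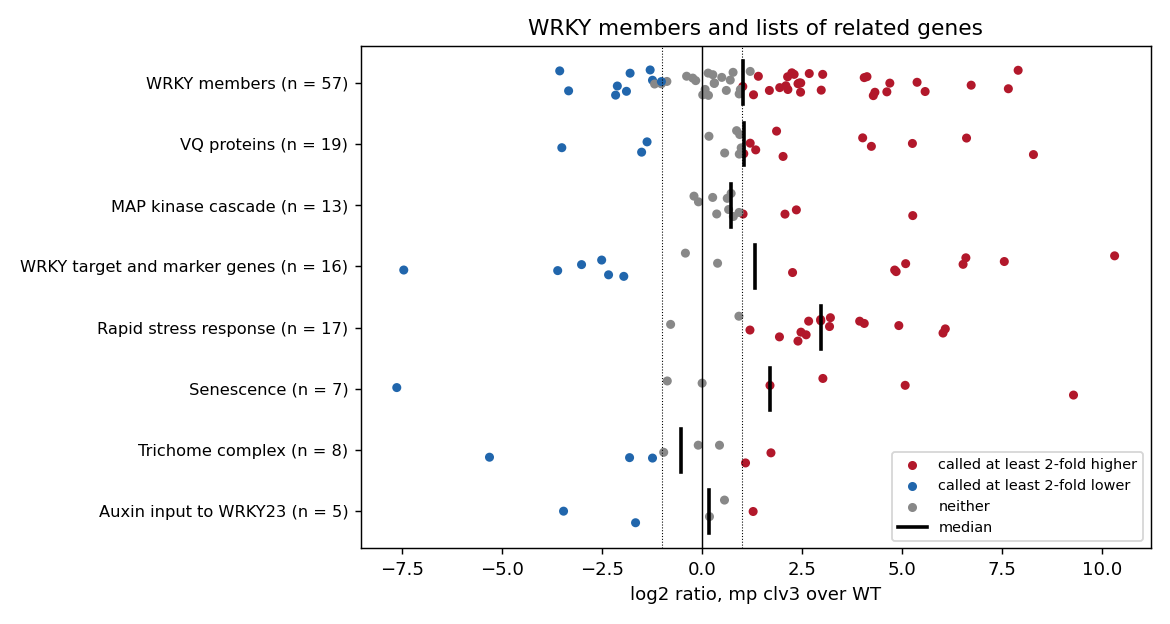
Log2 ratio of mp clv3 over WT for the WRKY members and 7 lists of related genes, 1 point per gene above the floor, with the median as a black bar and dotted lines at 2-fold. The rapid stress list has the highest median (2.96), and the WRKY members spread from -3.56 to 7.91.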

How the data were processed

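The members and gene lists were chosen with earlier results of these data known. Per the labels' protocols, poly(A) RNA was purified and strand-specific paired-end libraries of 100-base reads were sequenced on an Illumina HiSeq instrument. CASAVA 1.7, BWA and TAIR10 are listed in the submitters' processing notes; aligner settings, the way of counting and its use of strand were not given in the sources used here. Read numbers deposited by the authors were handled as estimated counts: they are whole, with 0 written as 0.5, which was set back to 0. The RPKM values were deposited by the authors, as was a log2 ratio, which equals the log2 of the RPKM ratio, and an FDR, an adjusted p-value of an unstated test. Of 27323 models, 1 with shifted cells was left out.

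Ratios used read numbers over the column total, with exact Clopper-Pearson intervals on read pairs (reads divided by 2, rounded up), since models with 2 reads outnumbered those with 1 (717 against 99 in mp clv3, 744 against 105 in WT). A value of 0 was set to a floor of 3 pairs, or 6 reads. The floor and intervals cover counting error only. The columns carry no replicates, so the planned edgeR test was not run, and edgeR 4.0.16 gave TMM factors only. Intervals were checked on simulated read pairs that carried counting error only, so the check does not bear on the spread between replicates. The minimum of 600 aligned bases for pairs of relatives was set after their values were seen. Named were 16 members fixed by role, up to 4 more per subfamily and up to 4 per list, by size of the ratio at 1 RPKM or more; the other members and a few list genes were added for completeness after their values were seen. Of 111 listed genes, 110 were in the table and MKP1 was not analysed here; 97 symbols matched RefSeq. Python 3.11.15, scipy 1.17.1 and R 4.3.3 were used.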

Additional observations from a re-analysis of the deposited data

How the results depend on the processing

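The count of members called higher stayed between 23 and 32 under TMM scaling, a fold of at least 1.5 or 4, a minimum of 1 RPKM, pseudocounts of 0.1 and 1 RPKM, and the whole counting interval on read pairs or reads, and was 18 with a pseudocount of 5 RPKM, against 28. The count called lower, 9, became 4 at a fold of at least 4, 4 with a pseudocount of 1 RPKM, 1 with a pseudocount of 5 RPKM and 5 with the whole interval on read pairs; 7 of the 9 are under 2 RPKM in both genotypes. The median log2 ratio of the members was 1.11 under TMM scaling, 1.28 with at least 1 RPKM, and 0.92, 0.44 and 0.26 with pseudocounts of 0.1, 1 and 5 RPKM. Under TMM scaling and the 3 pseudocounts, no ratio of the 37 members chosen by the naming rule changed direction; the other settings change the call only. With the whole counting interval on read pairs, WRKY31, WRKY36, WRKY44 and WRKY61 were no longer called higher and WRKY9, WRKY42, WRKY55 and WRKY65 no longer lower. Over all models, calls with a pseudocount of 5 RPKM were 44.2% higher, against 32.5%. No replicate could be left out and DESeq2 was not run, as there is 1 column per genotype. No paired analysis was possible because the columns carry no replicate numbers. A single column per genotype limits every value here: the spread between plants is not measured.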
